A study of Mus musculus with 48 samples.

Results

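A set of 189 stretches of open chromatin was more accessible in iNKT1 and iNKT2 cells than in iNKT17 cells of the mouse thymus. The 189 were drawn from 54524 regions of an ATAC-seq count table, in which the transposase Tn5 cuts and tags DNA that is not packed away. Counts were divided by their library's total, given as counts per 1000000 (CPM), and the 2 libraries of a sublineage were averaged. A region was kept if it was at most 10000 bp wide (54489 were), if the iNKT1 and iNKT2 means were both at least 5 CPM and at least 2.5 times the iNKT17 mean, and if these 2 means lay within a factor of 2 of each other. Kept regions made up 0.347% of those within the width limit. The members were thus chosen by the accessibility of all 6 ATAC libraries, so accessibility is given below as a description without a test, while position and RNA were not used by the rule.

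Cells came from thymi of FVB/N mice and were sorted as iNKT1, iNKT2 or iNKT17 cells; no genotype change or treatment is labelled for them, and their age and the sorting gates are not given in the sources used here. Each sublineage had 2 ATAC libraries and 2 bulk RNA libraries, so n = 2 throughout. Nothing in the labels says that replicates came from separate animals, so the p-values below speak of variation among libraries, part or all of which may be technical.

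Invariant natural killer T (iNKT) cells carry a semi-invariant T cell receptor that recognises glycolipids held by CD1d. In the thymus they mature into sublineages named for T helper types: iNKT1 cells express T-bet and make interferon gamma, iNKT2 cells are rich in PLZF and GATA3 and make interleukin 4, and iNKT17 cells make interleukin 17. Open regions away from gene starts often mark regulatory elements such as enhancers, and those near starts mark promoters; a region's nearest gene need not be the gene it acts on.

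The labels were checked with 8 marker genes a sublineage. RNA of 7 of 8 iNKT1 markers, 5 of 8 iNKT2 markers and 7 of 8 iNKT17 markers was higher in both libraries of their own sublineage than in all 4 others. The exceptions were Klrb1c for iNKT1, Zbtb16, Il17rb and Icos for iNKT2, and Sox13 for iNKT17. Summed RNA of 4 B cell markers was at most 0.0299 CPM with Ms4a1 and Pax5 at 0, and that of 6 thymocyte markers ranged from 0 to 13.1 CPM with Rag2, Dntt and Ptcra at 0. Summed RNA of 4 myeloid markers ranged from 33.2 to 78.5 CPM in iNKT1, from 36.8 to 119.6 in iNKT2 and from 41.1 to 137.6 in iNKT17 libraries, with Csf1r at 0. Most of that sum was Cst3, at 29.0 and 78.5 CPM in iNKT1, 106 and 36.8 in iNKT2, and 138 and 41.0 in iNKT17. Lyz2 had 4.22 CPM in iNKT1 replicate 1 and Itgam 13.6 CPM in iNKT2 replicate 1. Elsewhere neither passed 0.0388 CPM. The part of this RNA in the results was not tested. ATAC totals ran from 13299586 to 42964216 counts and RNA totals from 26811373 to 33688697. The median CPM over all regions was 5.57 and 5.84 in the iNKT1 libraries and 7.14 to 7.96 in the other 4, and the share of counts near gene starts was 58.7% and 59.4% in iNKT1 against 48.1% to 52.8%. With totals scaled by TMM, which allows for such differences between libraries, 211 regions met the rule, 168 of them among the 189.

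Only 8 of the 189 regions lay within 1 kb of the start of a protein-coding gene, or of its end where no start is listed. Counted separately, 8 RefSeq promoter windows overlapped a shared region. These are not the same set, since the windows include those of Gm30318 and Gm51782, which are the nearest gene of none of the 189. Of the windows, 3 are shown. They are that of Ccr8, whose RNA was called lower in iNKT17, and those of Rassf4 and Actn1, whose RNA passed none of the edgeR tests, for contrast. Each is the 250 bases before the start, 5′ to 3′ on the gene's strand, from RefSeq on GRCm38.p6, the assembly of the mm10 coordinates, and each lies wholly inside its shared region. Capitals mark an ETS core (AGGAAG) or a GATA core (AGATAA) on either strand. The Ccr8 window is chr9:120091883-120092132 (+ strand), the Rassf4 window chr6:116673837-116674086 (− strand) and the Actn1 window chr12:80260364-80260613 (− strand).
Ccr8: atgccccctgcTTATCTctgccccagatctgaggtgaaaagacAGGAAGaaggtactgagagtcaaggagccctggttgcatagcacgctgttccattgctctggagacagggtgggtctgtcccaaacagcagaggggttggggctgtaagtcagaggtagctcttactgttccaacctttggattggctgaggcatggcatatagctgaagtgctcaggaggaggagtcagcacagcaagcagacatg
Rassf4: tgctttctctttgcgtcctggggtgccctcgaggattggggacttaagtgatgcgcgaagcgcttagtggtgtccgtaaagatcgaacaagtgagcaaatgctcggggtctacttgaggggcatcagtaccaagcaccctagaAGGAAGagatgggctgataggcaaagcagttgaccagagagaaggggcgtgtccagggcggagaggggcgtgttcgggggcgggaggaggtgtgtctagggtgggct
Actn1: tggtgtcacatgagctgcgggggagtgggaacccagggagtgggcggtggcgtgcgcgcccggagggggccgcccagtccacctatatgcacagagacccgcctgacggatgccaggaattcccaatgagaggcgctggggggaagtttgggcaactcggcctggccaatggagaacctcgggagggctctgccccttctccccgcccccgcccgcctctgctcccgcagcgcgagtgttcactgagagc
The Ccr8 window holds a GATA core on its opposite strand, read as TTATCT from base 12, and an ETS core from base 44. Rassf4 has an ETS core from base 144, and Actn1 holds neither. An ETS core is found in 29.5% of 32851 RefSeq promoter windows of this length and in 3 of the 8 windows here, and a GATA core in 9.99% and in 1 of 8. These matches are letters in a window and were not tested as binding sites. The sequences of the 181 regions without such a window were not read, since no genome of the build was used here.

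Accessibility of the 189 regions separated the libraries without overlap, as the rule nearly required. Median accessibility was 11.9 and 12.6 CPM in the iNKT1 libraries, 9.9 and 10.4 in iNKT2, and 3.05 and 2.27 in iNKT17. In each of the 189 regions, all 4 iNKT1 and iNKT2 libraries were above both iNKT17 libraries. The lower of the iNKT1 and iNKT2 means was 2.5 to 14.4 times the iNKT17 mean, with a median of 3.15. That ratio was at least 4 in 45 regions, and the lower mean reached 10 CPM in 88 regions and 20 CPM in 28. The iNKT17 libraries still held reads at these sites, and their mean ranged from 0.634 to 24.4 CPM and was below 1 CPM in 3 regions. In bulk libraries, fewer open cells and less opening per cell cannot be told apart. Counts behind a single region ranged from 10 to 3240 reads a library.

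**Figure D1:**
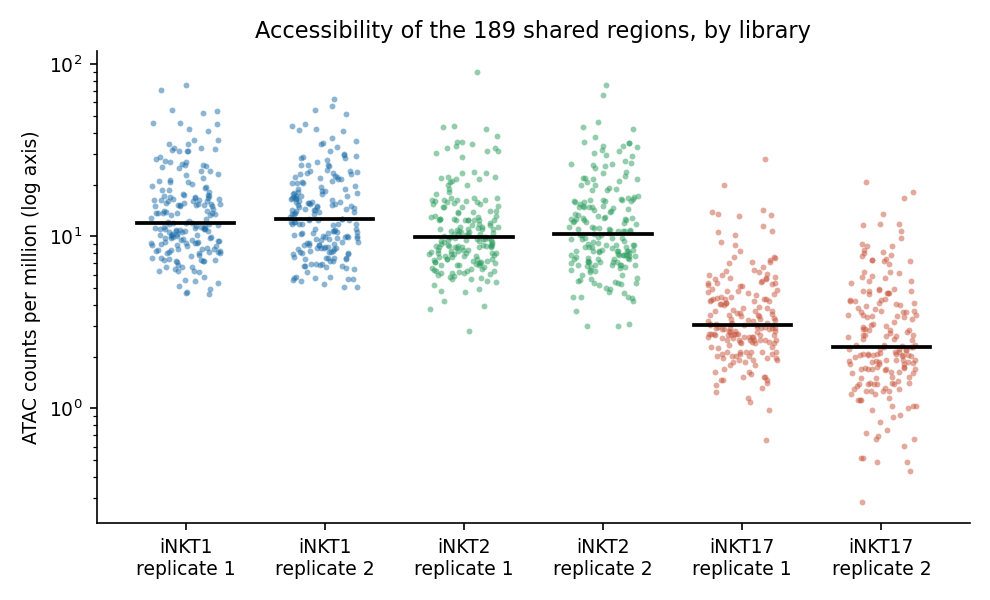
ATAC CPM (log axis) of the 189 shared regions in each of the 6 libraries; every point is a region and black lines are medians. Medians sit at 9.9 to 12.6 in the 4 iNKT1 and iNKT2 libraries and at 2.27 and 3.05 in the iNKT17 libraries.

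Within the allowed factor of 2, the regions leaned to iNKT1. The iNKT1 mean was the higher in 143 regions and the iNKT2 mean in 46. Both iNKT1 libraries exceeded both iNKT2 libraries in 104 regions and the reverse held in 22. The same counts were not made over all regions, so these values cannot show whether the lean is particular to the shared regions. The ratio of iNKT2 to iNKT1 had a median of 0.79 and ran from 0.504 to 1.96. At the edge of the rule, a region at Pigv had means of 27.4 (iNKT1), 20.7 (iNKT2) and 8.27 CPM (iNKT17) and was kept, while one at Vgll4 fell short at a ratio of 2.49.

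The rule was also applied to 1 replicate at a time, which chooses other sets of regions than the 189, and each set was read in the replicate that did not choose it. Replicate 1 alone chose 199 regions, and in replicate 2 both iNKT1 and iNKT2 were above iNKT17 in 197 of them (99.0%, against 17.7% of all regions). Replicate 2 alone chose 237, of which 236 showed that order in replicate 1 (99.6%, against 24.8%). The median ratio of the lower of iNKT1 and iNKT2 to iNKT17 in the other replicate was 3.12 for the 199 and 2.42 for the 237, against 0.674 and 0.781 over all regions. There, 102 of the 199 (51.3%, against 0.435% of all regions) and 102 of the 237 (43.0%, against 0.365%) met the full rule. These numbers describe the single-replicate sets and are no test of the 189, which both replicates chose.

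Other pairs of sublineages gave other numbers of regions under the mirrored rule. iNKT2 and iNKT17 shared 2991 regions against iNKT1, and iNKT1 and iNKT17 shared 130 against iNKT2. The 189 regions were thus the second group in size, and 20756 regions with at least 5 CPM in all 3 sublineages had means within a factor of 2 of each other.

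Regions shared by iNKT1 and iNKT2 were mostly distal. Of the 189, 8 (4.23%) lay within 1 kb of the nearest gene's start, compared with 26.7% of all regions and 51.7% of those open evenly in all 3 sublineages. For 4395 of 21887 protein-coding genes without a listed start, both gene ends stood in for it. Beyond 10 kb lay 136 regions (72.0%, against 51.6% of all), and beyond 50 kb lay 50 (26.5%, against 18.2%). The median distance was 18.4 kb against 10.9 kb for all regions. The groups shared by other pairs were distal as well, with 11.8% (iNKT2 and iNKT17) and 6.92% (iNKT1 and iNKT17) within 1 kb, so this position was not particular to the iNKT1 and iNKT2 group. Inside a gene lay 121 regions (64.0%, against 60.4% of all), but exons and introns were not told apart here. Their median width was 578 bp, against 485 bp. Chromosome 4 held 23 (12.2%, against 6.11% of all regions) and chromosome X held 0 of its 1140 regions.

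**Figure D2:**
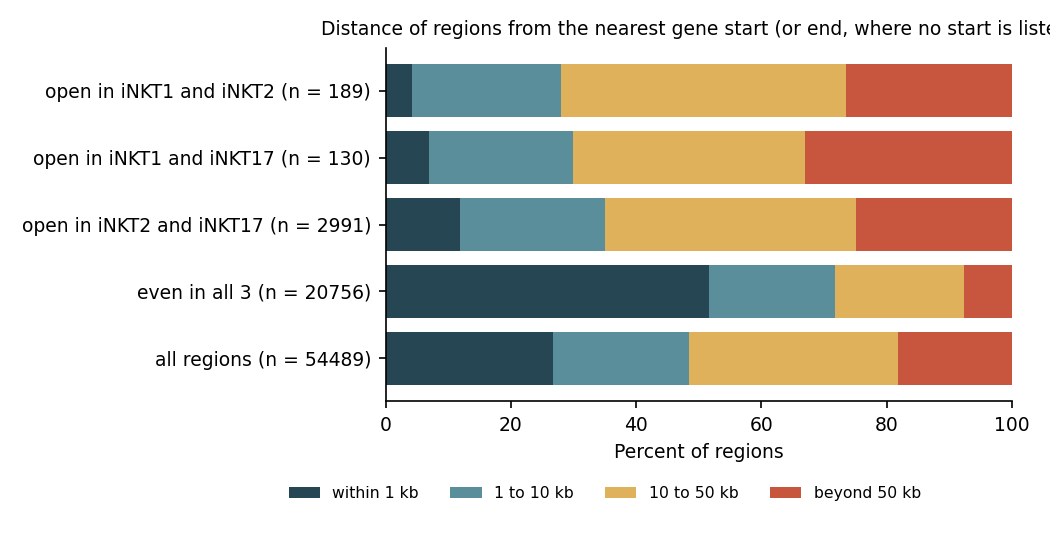
Share of regions by distance to the nearest gene start, or gene end where no start is listed, for all regions and for 4 groups of regions. The 189 regions have 4.23% within 1 kb and 72.0% beyond 10 kb; regions even in all 3 sublineages have 51.7% within 1 kb.

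The regions spread over 169 nearest genes. For 156 genes there was 1 region, and 13 genes held the other 33. The densest group lay at Ugcg, which encodes glucosylceramide synthase, the enzyme of the first step in making most glycosphingolipids. Ugcg had 5 shared regions among the 11 regions between chr4:59199333 and chr4:59254985, a span of 55.7 kb. The region inside the gene 10.1 kb from its start had 41.1 and 34.5 CPM in the iNKT1 libraries, 43.2 and 33.5 in iNKT2, and 13.1 and 10.7 in iNKT17. The one 65.0 kb from the start, beyond the gene's end, had 26.5 and 24.1, 31.1 and 34.9, and 7.08 and 11.8 CPM in the same order. Among these 5, the iNKT2 mean was the higher in 4 and the iNKT1 mean in 1, the reverse of the lean seen over all 189 regions. The region over the Ugcg start itself was open in all 3, with means of 78.6, 51.2 and 44.8 CPM in iNKT1, iNKT2 and iNKT17.

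**Figure D3:**
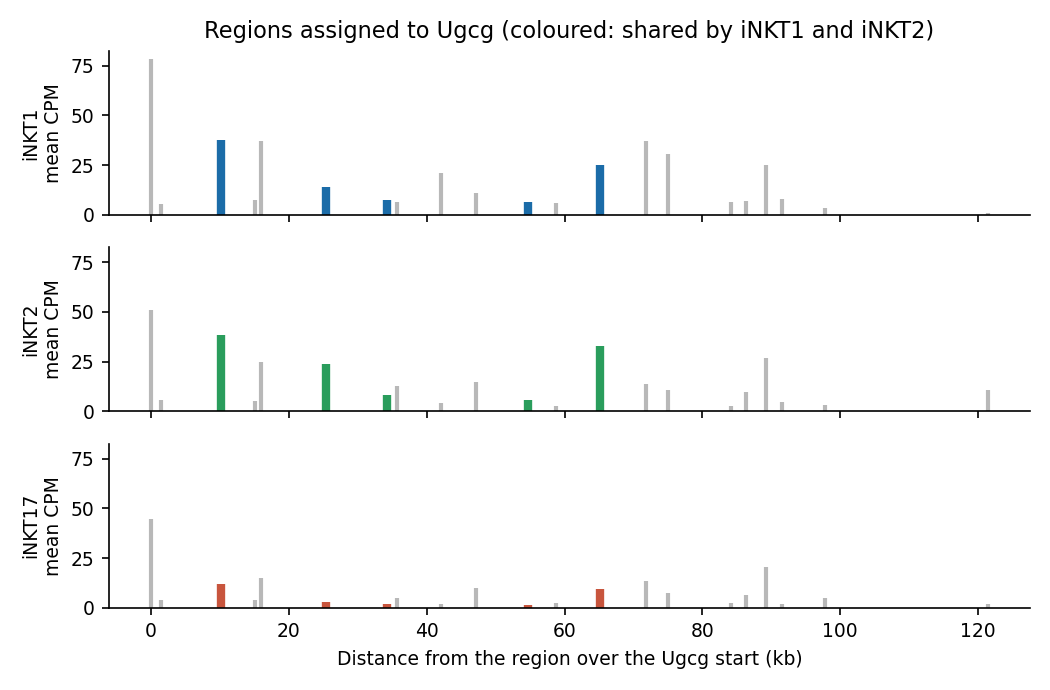
Mean ATAC CPM of the 21 regions assigned to Ugcg in iNKT1, iNKT2 and iNKT17 cells, by distance in kb from the region over the gene's start; coloured bars are the 5 shared regions. At each coloured bar the iNKT1 and iNKT2 bars exceed the iNKT17 bar, whereas the start region is tall in all 3.

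Ugcg RNA was 729.5 and 747.4 CPM in the iNKT1 libraries, 1182 and 887 in iNKT2, and 104.9 and 306.8 in iNKT17. Both iNKT17 libraries were below the 4 others, and the libraries of iNKT17 differed from each other by more than those of iNKT1. The fall in iNKT17 against the mean of iNKT1 and iNKT2 was 2.09 on the log2 scale (SE 0.43) and missed the threshold, with an adjusted p of 0.0772 (edgeR quasi-likelihood test, Benjamini-Hochberg over all 12372 genes tested). It passed without either iNKT17 library, with edgeR adjusted p of 0.000765 and 7.07e-08, in a fit where the lone iNKT17 library is assumed to vary like the other groups, and over all alternatives that p ran from 6.28e-12 to 0.393.

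Groups of 3 shared regions lay at further places. One was Chn2, which encodes beta-chimaerin, a protein that switches off the GTPase Rac. Its 3 regions fell within 6.67 kb in the gene, chr6:54158393-54165063, 99.9 to 106.2 kb from the nearest listed start. The strongest had 31.4 and 31.3 CPM in iNKT1, 16.3 and 22.0 in iNKT2, and 6.26 and 8.30 in iNKT17. The remaining 27 of the 30 regions assigned to Chn2 were not shared in this way.

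Chn2 RNA was 212.3 and 211.0 CPM in iNKT1, 261.9 and 289.9 in iNKT2, and 45.1 and 83.2 in iNKT17. The iNKT1 and iNKT2 libraries lay close together and both iNKT17 libraries were far below. The change in iNKT17 against the mean of the other two was −1.91 on the log2 scale (SE 0.35; edgeR quasi-likelihood test, adjusted p = 0.0287), and against iNKT2 alone −2.11 (SE 0.39; edgeR adjusted p = 0.0486).

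Inside Inpp4b, a phosphatase that removes the 4-phosphate from phosphatidylinositol 3,4-bisphosphate, lay 2 shared regions for which the unnamed gene Gm51582 has the nearest start. The region chr8:81497328-81498124 had 53.4 and 54.2 CPM in iNKT1, 32.6 and 46.5 in iNKT2, and 7.13 and 7.32 in iNKT17. Inpp4b RNA was 736.1 and 589.5 CPM in iNKT1, 260.9 and 309.8 in iNKT2, and 39.9 and 109.7 in iNKT17, a descending order without overlap. The log2 change in iNKT17 against the mean of iNKT1 and iNKT2 was −2.54 (SE 0.42; edgeR adjusted p = 0.0142).

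Lrrc8c and Lrrc8d, which encode subunits of the volume-regulated anion channel, lie side by side. The 3 shared regions there span 47.6 kb, 2 of them between the genes and closest to Lrrc8c and 1 near the Lrrc8d start. Lrrc8d has the nearest start to all 3, and its RNA overlapped between sublineages, at 34.0 to 56.7 CPM in iNKT1, 46.9 to 47.7 in iNKT2 and 33.4 to 49.6 in iNKT17. Lrrc8c RNA was 124.3 and 157.2 CPM in iNKT1, 7.55 and 24.2 in iNKT2, and 0.0965 and 0.116 in iNKT17, which is 3 reads in each iNKT17 library. Its log2 change in iNKT17 was −8.74 (SE 1.1; edgeR adjusted p = 0.00312). Neighbouring genes at the same regions thus had different RNA patterns.

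Rptor, the Raptor scaffold of the kinase complex mTORC1, held 4 shared regions, 3 of them within 14.5 kb. Those 3 included the largest ratio of all, at chr11:119876930-119877606, with 20.7 and 15.6 CPM in iNKT1, 14.7 and 15.8 in iNKT2, and 1.63 and 0.486 in iNKT17. Rptor RNA was 170.8 and 106.4, 33.9 and 66.7, and 52.0 and 24.7 CPM, so that iNKT2 and iNKT17 libraries overlapped. RNA of Chmp6, an ESCRT-III subunit whose end is the nearest listed one, overlapped in all 3 sublineages (6.30 to 49.3 CPM).

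Across all nearest genes, RNA was more often low in iNKT17 than among genes near regions in general. Of the 169 nearest genes, 168 were matched in the RNA table. Both iNKT17 libraries were below all 4 iNKT1 and iNKT2 libraries in 41 of the 168 (24.4%, exact 95% interval 18.1% to 31.6%). The same held for 6.92% of the 15005 genes nearest to any region. Both iNKT17 libraries were above the 4 others in 6 (3.57%, against 6.96%). Genes without reads cannot show either order. Among genes with enough reads for the RNA test, 29.9% of 137 were below (against 10.6% of 9785) and 4.38% above (against 10.5%). The interval covers counting error only, and neighbouring genes are not independent.

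The share depended on which gene a region was given. With the gene that holds the region, or the closest gene body, it was 46 of 166 genes (27.7%). It was 18 of 51 genes (35.3%) where a start or end lay within 10 kb and 24 of 120 (20.0%) beyond 10 kb, groups that share some genes. The share over genes near any region was not computed for these assignments or distances. Differences among these shares therefore have no matched background. With the same count made for the low sublineage, regions shared by iNKT1 and iNKT17 gave 23.3% of 116 genes against 4.46%, and those shared by iNKT2 and iNKT17 gave 10.5% of 2140 against 5.93%. A low RNA level in the less accessible sublineage was therefore not particular to the iNKT1 and iNKT2 regions.

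A low-count filter left 137 of the 168 genes for the test across 12372 genes. Against the mean of iNKT1 and iNKT2, RNA of 4 of the 137 fell in iNKT17 (Gramd3, Ccr8, Atp1b1 and Chn2; 0.606% of all tested genes were lower) and of 0 rose (1.02% were higher) by edgeR's quasi-likelihood test at an adjusted p under 0.05. At an unadjusted p under 0.05, edgeR gave 31 lower (22.6%, against 4.57% of all tested genes) and 2 higher (1.46%, against 4.78%). DESeq2 called 37 lower of 145 (25.5%, against 5.77%) and 4 higher (2.76%, against 4.84%). Against iNKT1 alone, edgeR called 8 lower (Bin2, Atp1b1, Ccr8, Usp48, Il2rb, Gramd3, Tbkbp1 and Pag1; 1.01% of all tested genes) and Hivep3 higher (0.986%). Against iNKT2 alone, it called Chn2, Ccr8 and Gramd3 lower (0.275%) and 0 genes higher (0.436%). At an unadjusted p, 22 were lower (16.1%, against 4.08%) and 5 higher (3.65%, against 3.78%) there, and DESeq2 called 24 lower (16.6%, against 4.62%) and 6 higher (4.14%, against 3.78%). These comparisons share the iNKT17 libraries. Between the sublineages that share the regions, edgeR called Il2rb and Arhgap26 lower in iNKT2 than in iNKT1 (0.752% of all tested genes) and 0 genes higher (0.533%). At an unadjusted p, 19 were lower (13.9%, against 4.10%) and 2 higher (1.46%, against 3.47%), and DESeq2 called 16 of 145 lower (against 3.26%) and 3 higher (2.07%, against 3.38%). The median log2 change of the 137 against the mean of both was −0.66, beside −0.03 over all tested genes, and 103 (75.2%) were below 0, beside 51.3%.

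The number of calls against the mean of iNKT1 and iNKT2 changed when single libraries were left out, for the nearest genes and for all tested genes. With every library, edgeR called 4 nearest genes and 201 genes in all. Without iNKT1 replicate 1 or 2 it called 5 and 4 nearest genes beside 388 and 225 in all. Without iNKT2 replicate 1 or 2 these were 9 and 7 beside 306 and 310, and without iNKT17 replicate 1 or 2 they were 23 and 17 beside 1025 and 387. Lower calls without iNKT17 replicate 1 made up 15.3% of the nearest genes and 5.21% of all tested genes. The common biological coefficient of variation of the RNA libraries was 1.3.

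The rule left a narrow range of accessibility ratios, at least 2.5 over iNKT17 and within a factor of 2 between iNKT1 and iNKT2, so the following correlations only describe that range. Over the 137 genes, the ratio of the lower mean to iNKT17 and the RNA log2 change had a Spearman correlation of 0.0752. The ratio of iNKT2 to iNKT1 accessibility and the RNA log2 change between iNKT2 and iNKT1 had a Spearman correlation of 0.0314. Genes are not independent replicates, and the same libraries underlie all points. Among the 40 genes with a region of 4-fold or more, 8 (20.0%) had both iNKT17 libraries lowest, a share without a matched background.

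**Figure D4:**
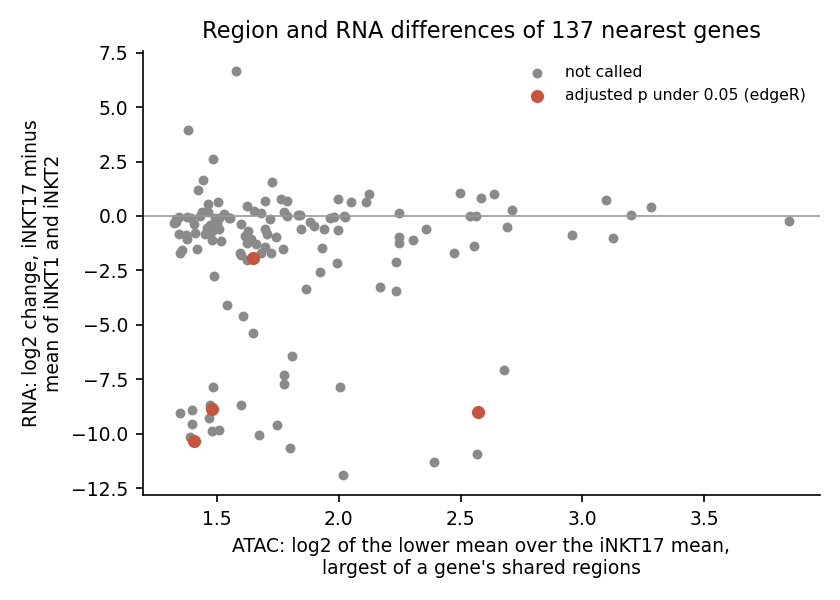
RNA log2 change in iNKT17 against the mean of iNKT1 and iNKT2, plotted against the log2 ratio of accessibility at a gene's shared region, for the 137 tested nearest genes; larger red points are the 4 called genes. More points lie below 0 (103) than above (34), and the Spearman correlation over this range, which the rule limits, is 0.0752.

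Genes with low iNKT17 RNA included several with almost no reads there. Ccr8, a chemokine receptor of type 2 and regulatory T cells, had its promoter region (chr9:120091833-120092227, sequence above) at 15.1 and 14.8 CPM in iNKT1, 9.44 and 10.9 in iNKT2, and 4.03 and 3.65 in iNKT17. Its RNA was 109.5 and 155.9 CPM in iNKT1, 30.1 and 12.9 in iNKT2, and 0 and 0.0775 in iNKT17, with 0 and 2 reads. The ratio of the pooled iNKT1 and iNKT2 level to iNKT17 was 2303, with an exact 95% counting interval of 637 to 19020. That interval covers counting error only and leaves out variation between libraries, and most of the pooled reads came from iNKT1. The fall passed against the mean of both (edgeR adjusted p = 0.00501), against iNKT1 (edgeR adjusted p = 0.00303) and against iNKT2 (edgeR adjusted p = 0.0213). RNA of Ccr8 was near 0 in iNKT17, whereas its promoter region still held reads there.

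Gramd3, a gene of the GRAM domain family, had a shared region inside it at 8.91 and 11.6 CPM in iNKT1, 8.00 and 11.96 in iNKT2, and 2.50 and 4.65 in iNKT17. Its RNA was 224.3 and 245.5 CPM in iNKT1, 86.8 and 40.7 in iNKT2, and 0.0322 and 0.504 in iNKT17. The log2 change in iNKT17 was −8.85 (SE 1.09; edgeR adjusted p = 0.00313). Atp1b1, the beta subunit of the sodium-potassium pump, lies 142.5 kb from its region, chr1:164600444-164601276. That region had 21.8 and 23.5 CPM in iNKT1, 20.0 and 23.8 in iNKT2, and 3.70 and 3.65 in iNKT17. Atp1b1 RNA was 87.3 and 87.2, 11.1 and 22.7, and 0.0643 and 0.0775 CPM, and it was called against the mean of both (edgeR adjusted p = 0.0193). That call was lost without iNKT1 replicate 1 (edgeR adjusted p = 0.0793) or replicate 2 (0.135).

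Padi2, an enzyme that converts arginine to citrulline in proteins, holds a shared region whose nearest start is that of Sdhb. Padi2 RNA was 229.5 and 205.9 CPM in iNKT1, 14.3 and 9.38 in iNKT2, and 0 and 0.116 in iNKT17, with 3 iNKT17 reads in all (edgeR adjusted p = 0.00190). In Ccr8, Gramd3, Atp1b1, Padi2 and Lrrc8c, both iNKT1 libraries were also above both iNKT2 libraries. None of these 5 passed the test of iNKT2 against iNKT1 (edgeR adjusted p from 0.0511 in Padi2 to 0.729 in Atp1b1). At Chn2 and Ugcg both iNKT2 libraries were above both iNKT1 libraries (edgeR adjusted p of 1.00 each).

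**Figure D5:**
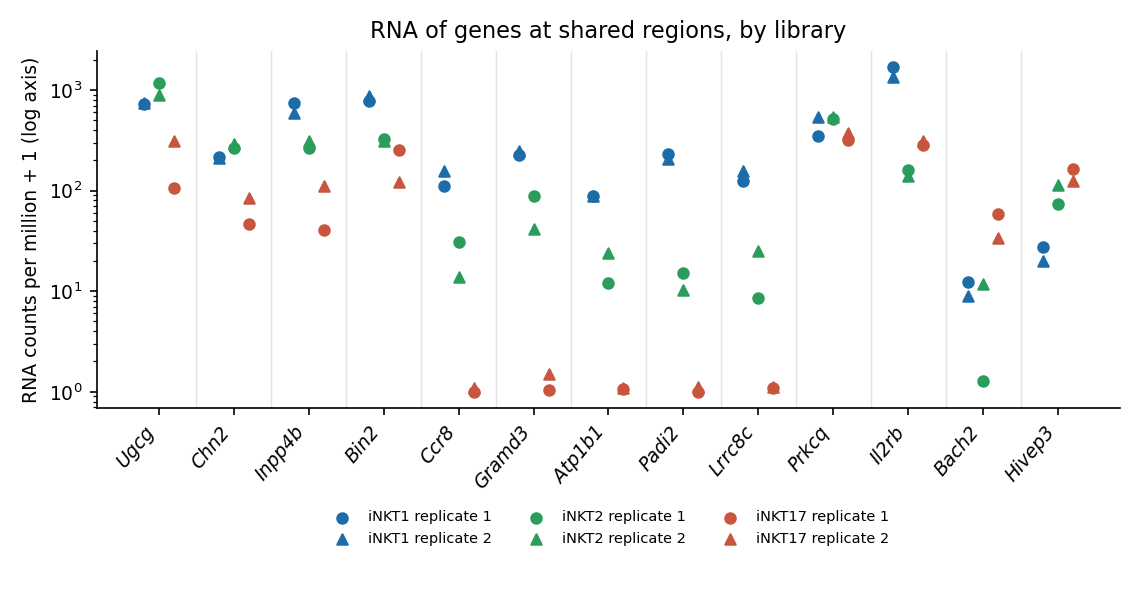
RNA CPM plus 1 (log axis) of genes at shared regions, by library; colours are sublineages and shapes are replicates. The iNKT17 points are lowest for Ugcg, Chn2, Inpp4b, Bin2, Ccr8, Gramd3, Atp1b1, Padi2 and Lrrc8c, and highest for Bach2 and Hivep3.

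The most accessible regions mixed genes with and without an RNA difference. The top region lay inside Crybg2, at chr4:134061324-134062475, with 75.3 and 57.2 CPM in iNKT1, 89.9 and 75.7 in iNKT2, and 28.1 and 20.8 in iNKT17. Crybg2 RNA was 216.4 and 327.1 CPM in iNKT1, 139.3 and 38.9 in iNKT2, and 3.41 and 0.116 in iNKT17 (edgeR adjusted p = 0.178), with no overlap between iNKT17 and the others. The Actn1 promoter region had 45.0 and 51.2, 31.4 and 66.2, and 19.8 and 18.0 CPM. RNA of Actn1, an actin cross-linker, was 76.9 and 102.3 CPM in iNKT1, 0.0338 and 10.9 in iNKT2, and 0 and 0.0775 in iNKT17, so that 1 iNKT2 library was as low as iNKT17 (edgeR adjusted p = 0.231). RNA of Rassf4, the third gene with a sequence above, was 6.28 and 0 CPM in iNKT1, 9.55 and 0.0362 in iNKT2, and 0 in both iNKT17 libraries.

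The region inside Bcl2l11, the gene of the cell death protein BIM, had 70.5 and 63.1 CPM in iNKT1, 43.9 and 43.4 in iNKT2, and 11.4 and 8.76 in iNKT17. Bcl2l11 RNA did not follow that order, at 109.7 and 40.1, 0.102 and 15.6, and 42.3 and 33.0 CPM. The region at Bin2, which encodes a membrane-bending protein of blood cells, had 45.6 and 44.0, 38.4 and 37.7, and 10.1 and 9.82 CPM. Bin2 RNA was 780.9 and 872.4 CPM in iNKT1, 321.4 and 312.1 in iNKT2, and 250.5 and 120.3 in iNKT17. It was lower in iNKT17 than in iNKT1 (log2 change −2.16, SE 0.35; edgeR adjusted p = 0.0107) but against the mean of both the edgeR adjusted p was 0.0530. The strongest regions at Ergic1, Wwox, Gse1 and Cebpb had ratios of 2.63 to 3.03, and none of these 4 genes passed the edgeR test in any of the 4 comparisons.

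Other regions with a large ratio lay at Pip4k2a, a phosphoinositide kinase, and at Atp6v0e, a subunit of the proton pump of lysosomes. The Pip4k2a region chr2:18983967-18984868 had 21.0 and 25.9 CPM in iNKT1, 15.6 and 21.7 in iNKT2, and 2.94 and 1.12 in iNKT17. RNA of both genes overlapped between sublineages or ran the other way: Atp6v0e RNA was 82.0 to 112.7 CPM in iNKT1 and iNKT2 and 110.8 and 195.7 in iNKT17. Arsb, a lysosomal sulfatase, had 210.8 and 206.1 CPM of RNA in iNKT1, 36.7 and 27.8 in iNKT2, and 9.94 and 52.5 in iNKT17. Arhgap26, a GTPase-activating protein, had 140.5 and 151.7, 17.8 and 19.4, and 90.5 and 47.3 CPM. It was lower in iNKT2 than in iNKT1 (log2 change −2.97, SE 0.59; edgeR adjusted p = 0.0475), although its region was open in both. The remaining regions of this kind lay 20.4 kb from Grhl3, 10.2 kb from Rubcnl and 788.8 kb from Myc, the cell growth factor gene. Myc RNA was 189.0 and 254.2 CPM in iNKT1, 66.9 and 119.5 in iNKT2, and 71.5 and 69.5 in iNKT17.

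Of 11 lists of T cell genes, 7 held a shared region. In all, 9 of 205 listed genes were nearest to one (4.39%, against 0.772% of protein-coding genes), but listed genes also have more regions, and 0.462% of the regions at listed genes were shared against 0.347% of all. Among the 9 were Il2rb and Runx3 (type 1 program), Il13 and Ccr8 (type 2), Prkcq (T cell receptor signalling), Foxp1 and Bach2 (naive T cells) and Hivep3 (iNKT identity). None of the 22 type 17, 25 NK receptor, 20 chromatin and 18 interferon genes had one, and Tbx21, Gata3, Zbtb16, Ifng and Il4 held none. These lists had 152, 80, 276 and 127 regions, in that order. At the 0.347% share over all regions, so few need not include a shared one. The absences are therefore not read as a trait of these lists or genes. RNA of the lists was compared between iNKT17 and the mean of iNKT1 and iNKT2 by edgeR at an adjusted p under 0.05, where 0.606% of all tested genes were lower and 1.02% higher. Of the tested genes, 7 of 20 NK receptor and cytotoxicity genes were lower and 0 higher, and 6 of 16 type 1 genes were lower and 1 higher. Chemokine receptor, integrin and egress genes went both ways, with 5 of 19 lower and 4 higher. Of 16 type 2 genes 2 were lower and 5 higher, of 11 co-receptor genes 1 was lower and 2 higher, and of 19 type 17 genes 0 were lower and 7 higher. In the other 5 lists 0 genes were lower: 1 of 29 T cell receptor signalling genes, 2 of 16 naive T cell genes, 2 of 15 iNKT identity genes, 1 of 18 interferon genes and 0 of 19 chromatin genes were higher.

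Among the receptors, Il2rb encodes the beta chain of the receptors for interleukins 2 and 15. Its shared region, 1 of the 8 regions assigned to the gene, lies inside it and had 18.6 and 13.8 CPM in iNKT1, 11.9 and 8.20 in iNKT2, and 4.30 and 2.18 in iNKT17. Il2rb RNA was 1689 and 1357 CPM in iNKT1 but 157.5 and 137.3 in iNKT2 and 280.5 and 306.7 in iNKT17. It was lower than in iNKT1 in iNKT2 (log2 change −3.37, SE 0.24; edgeR adjusted p = 0.000148) and in iNKT17 (−2.38, SE 0.23; edgeR adjusted p = 0.000567). Here iNKT2 RNA was the lowest of the 3, unlike the accessibility of the shared region. Over all 8 regions assigned to Il2rb, summed mean CPM was 265 in iNKT1, 145 in iNKT2 and 174 in iNKT17. That sum was lowest in iNKT2, as the RNA was.

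Prkcq, protein kinase C theta of the T cell receptor pathway, had 1 of its 36 regions in the set, and its RNA was 346.7 and 536.4 CPM in iNKT1, 509.9 and 535.1 in iNKT2, and 318.6 and 371.4 in iNKT17. The iNKT17 libraries overlapped the iNKT1 libraries there.

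RNA of none of the 4 listed transcription factors was lowest in both iNKT17 libraries. Runx3, a factor of the cytotoxic program, had 1 shared region of 30, with 10.8 and 8.90 CPM in iNKT1, 8.35 and 5.64 in iNKT2, and 1.42 and 0.718 in iNKT17. Runx3 RNA was 233.6 and 251.3 CPM in iNKT1, 92.1 and 98.6 in iNKT2, and 140.4 and 228.0 in iNKT17. Foxp1, a factor of T cell quiescence, had overlapping RNA of 58.0 to 109.0 CPM in the 6 libraries.

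RNA of Bach2 and Hivep3 was highest in iNKT17, where the 1 shared region of each gene was least open. Bach2, a repressor that restrains effector differentiation, had RNA of 11.3 and 8.00 CPM in iNKT1, 0.271 and 10.6 in iNKT2, and 57.1 and 32.5 in iNKT17 (edgeR adjusted p = 0.623). Its region had 11.9 and 17.8, 6.62 and 8.95, and 2.67 and 2.90 CPM. Hivep3, a zinc finger factor, had a region 1.75 kb from its start at 5.59 and 5.49, 7.20 and 10.98, and 2.67 and 1.41 CPM. Over all 9 regions assigned to Hivep3, summed mean CPM was 43.2 in iNKT1, 61.5 in iNKT2 and 47.2 in iNKT17, again not lowest in iNKT17. Hivep3 RNA was 26.6 and 19.1 CPM in iNKT1, 72.8 and 111.6 in iNKT2, and 163.4 and 123.3 in iNKT17, and was higher in iNKT17 than in iNKT1 (log2 change 2.65, SE 0.54; edgeR adjusted p = 0.0414). Further genes with iNKT17 RNA above all other libraries included Slc22a5, Fam102a and Rph3al, named after their values were seen.

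Il13, a type 2 cytokine, had a region 135 bp outside the gene and 3.51 kb from its start, chr11:53630934-53631443, at 24.0 and 21.8 CPM in iNKT1, 12.4 and 12.4 in iNKT2, and 3.48 and 2.64 in iNKT17. Il13 RNA was 0 and 18.5 CPM in iNKT1, 23.0 and 32.7 in iNKT2, and 0 in both iNKT17 libraries (edgeR adjusted p = 0.524). The accessibility of this region was higher in iNKT1 than in iNKT2, and 1 of the iNKT1 libraries held no Il13 reads. Over all 5 regions assigned to Il13, summed mean CPM was 107 in iNKT1, 118 in iNKT2 and 58.4 in iNKT17. That sum was highest in iNKT2, as the RNA was.

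A pair of regions near receptor genes was singled out after the values were seen. The one 4.53 kb from the start of Tnfrsf18, which encodes the receptor GITR, had 52.3 and 45.1 CPM in iNKT1, 32.6 and 32.0 in iNKT2, and 5.77 and 7.81 in iNKT17. Tnfrsf18 RNA was 86.3 and 142.4, 48.6 and 57.2, and 43.9 and 21.6 CPM (edgeR adjusted p = 0.554). The one 11.4 kb from the start of Ctla4, an inhibitory receptor, had 11.2 and 16.6, 12.4 and 11.1, and 2.07 and 2.53 CPM, while Ctla4 RNA was 0 in 5 libraries and 19.2 CPM in 1 of iNKT17. Over all 9 regions assigned to Ctla4, summed mean CPM was 54.8 in iNKT1, 67.3 in iNKT2 and 80.8 in iNKT17, the reverse of that region.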

How the data were processed

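Thymic iNKT1, iNKT2 and iNKT17 cells were profiled by ATAC-seq (transposition with Tn5) and bulk RNA-seq (TruSeq stranded mRNA kit, per the labels' protocols), 2 libraries each. The authors deposited raw counts: a whole number of reads for each region (ATAC) or gene (RNA). The submitters' processing notes list STAR 2.5.4, Bowtie2, MACS2, kallisto, SAMtools, bedtools 2.27.1, HOMER 4.9.1, FastQC 0.11.7, MultiQC and DESeq2 1.22.2 with builds mm10 and GRCm38; which tool made which table, how peaks were merged and whether counting used the strand are not given in the sources used here. Reads of overlapping or antisense genes therefore cannot be told apart. All columns used were matched to samples (0 unmatched); libraries of iNKT1 cells split by CD4 were not analysed here.

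ATAC CPM were computed over column totals. The members and gene lists were chosen with earlier results of these data known, so that a direction already seen is not independent support. Each region was assigned to the protein-coding gene with the nearest RefSeq start (GRCm38.p6), or, for genes with no listed start, the nearer gene end; coordinates are as deposited. A gene that holds or lies closest to the region was an alternative added after seeing the data. Of 52636 RNA gene IDs, 99.6% had a symbol. In R 4.3.3, edgeR 4.0.16 filtered low-count genes, scaled libraries by TMM (also for RNA CPM) and fitted a robust quasi-likelihood model to the 6 libraries; p-values were adjusted by Benjamini-Hochberg over 12372 genes and called under 0.05. Each SE beside an edgeR log2 change is the size of that change divided by the square root of its F statistic. It is not a separate estimate, and for genes with few iNKT17 reads it is only a rough guide. DESeq2 1.42.0 was an alternative. The edgeR test was run first on simulated data with far less spread between libraries than here, and with changes placed only in well-read genes. That run therefore does not show how the test performs on these data.

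Named genes were those of the 10 most accessible members, the 10 with the largest ratio to iNKT17 plus 0.5 CPM, the 8 genes with the most members, called genes, and members on the lists or among key lineage genes. In promoter windows, 15 motifs were searched on both strands, of which the ETS and GATA cores are reported. Shares of motifs over whole regions or their central part were not computed, since no genome was used. A few genes that this rule names are not reported here.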

Additional observations from a re-analysis of the deposited data

How the results depend on the processing

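The number of shared regions was 376 at 2 times and 45 at 4 times the iNKT17 mean, 88 at a minimum of 10 CPM, 277 at 3 CPM, 211 with TMM-scaled totals, and 189 without the width limit. It was 199 to 237 in single replicates, where 3.52% to 8.44% lay within 1 kb of a start. The share of nearest genes with both iNKT17 RNA libraries lowest was 18.9% with known starts only and 35.3% within 10 kb, with no background computed for either. With 1 RNA library left out, the share ran from 26.2% to 35.7% (background 8.1% to 17.4%). Calls among all genes moved with the tool. In the order iNKT17 against iNKT1, against iNKT2, against both, and iNKT2 against iNKT1, edgeR called 247, 88, 201 and 159 genes, DESeq2 1820, 1487, 1879 and 1177, edgeR without the low-count filter 559, 339, 485 and 445, and edgeR with 1 library left out 195 to 1040, 149 to 831, 225 to 1025 and 153 to 425. Among nearest genes of shared regions the same comparisons gave 9, 3, 4 and 2 calls, with DESeq2 43, 30, 41 and 19, without the filter 22, 16, 17 and 10, and with 1 library left out 4 to 25, 3 to 23, 4 to 23 and 1 to 10. The causes were not tested. Lower calls made up 37.3% of all calls against both and 38.6% against iNKT2 by edgeR, and 54.4% and 55.0% by DESeq2. Leaving out iNKT17 replicate 1 moved the median log2 change of all genes against both from −0.03 to −0.73. For 9 genes the direction against both held in 81 of 81 fits. That outcome was nearly fixed in advance and is no test, since both iNKT17 libraries were the lowest for all 9. In some of these fits Atp1b1 lost its call, and Ugcg or Bin2 gained one. Replicate numbers are shared by the groups; differences between RNA replicates correlated at −0.125 to 0.0606, so the RNA libraries were not treated as pairs, and pairing of ATAC libraries was not examined. With a replicate block, the calls among nearest genes were 5, 3, 5 and 2, and Bin2 was called (edgeR adjusted p = 0.0393). Motif shares of whole against central regions were not run, as no genome was used. The depth behind weak regions was as low as 10 reads in an iNKT17 library.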
